A study of Mus musculus with 5 samples.

Results

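The genes described here are 7 enzymes with which myeloid cells change the amino acids, lipids and metabolites around them: Nos2, Acod1, Ido1, Ptgs2, Ptges, Odc1 and Gatm. They were taken by symbol, as 7 of 32285 features in the T cell libraries and 7 of 54987 in the whole-tumor libraries, and their levels were described in the neutrophils, macrophages, monocytes, dendritic cells, fibroblasts and cancer cells of 4T1 tumors. All 7 had at least 1 unique molecular identifier (UMI, a count of one captured transcript) in both T cell libraries.

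Arginine is a substrate that some of these enzymes draw on, and T cells starved of it stop dividing. NOS2, the inducible nitric oxide synthase, turns arginine into nitric oxide and citrulline. ODC1 makes the polyamine putrescine from ornithine, and GATM takes arginine for the first step of creatine synthesis. ACOD1 makes itaconate from the citric acid cycle intermediate cis-aconitate in activated myeloid cells. PTGS2 (COX-2) and PTGES carry out successive steps in making prostaglandin E2, and IDO1 opens the ring of tryptophan on the way to kynurenine. Myeloid cells of 4T1 tumors, above all their neutrophils, are widely studied for suppressing T cells.

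The tumors grew from 4T1 cells, a BALB/c mammary carcinoma line (here carrying Thy1.1), placed in a mammary fat pad (MFP) of BALB/c mice 12 weeks old. Doxorubicin (DOX), a DNA-damaging anthracycline, was injected into a vein at 5 mg/kg, with 3 doses spaced 3 days apart, and control animals were given saline. DOX sensitive tumors were those whose growth was held back and DOX resistant tumors those that grew on. The T cell sensitive and T cell resistant libraries were DOX treated tumors from which other immune cells and CD90.1+ cancer cells had been removed with magnetic beads, with 3 tumors pooled in each, so their myeloid cells, fibroblasts and cancer cells were what that depletion left behind. The tumor control (saline), tumor sensitive and tumor resistant libraries held undepleted tumor (the last 2 after DOX). The library titled resistant among these carried a source description naming a sensitive tumor, and that of the saline control also named a sensitive tumor, so whole-tumor libraries are named here by their titles, and which of them was sensitive is in doubt. Their gated T or NK cells were 10.9% (53 of 488) of the kept cells in the library titled control, 1.86% (5 of 269) in that titled sensitive and 6.08% (16 of 263) in that titled resistant. Each of the 5 groups was 1 library, so no difference between libraries has a replicate check, and no p-value is given.

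Levels are UMIs of a gene in each 1e6 UMIs (CPM) summed over the cells of a class, with the exact Poisson 95% interval in brackets. Shares of cells are counted after each cell was thinned to 1000 UMIs and carry Clopper-Pearson 95% intervals, and ratios between libraries carry exact conditional binomial 95% intervals. These intervals cover counting error only, and with reads from one end of the transcript a level was not divided by gene length, so levels of different genes are not ranked against each other. Each cell was placed in the class, here called a gate, with most of its 12 markers detected, with at least 3 markers and a lead of at least 2 over the next class. The T cell libraries held 3949 (sensitive) and 6116 (resistant) barcodes with 31690845 and 35908799 UMIs, and the whole-tumor libraries 275 to 501 barcodes with 537293 to 1731940 UMIs. The mitochondrial share of UMIs had a median of 2.47% (sensitive) and 8.95% (resistant) in the T cell libraries, which shared 31 barcodes. Where a pair of values follows for the T cell libraries, the sensitive one stands first.

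In the sensitive and resistant T cell libraries the gates held 146 and 175 neutrophils, 170 and 139 macrophages, 24 and 40 dendritic cells, 11 and 15 monocytes, 816 and 605 fibroblasts, 107 and 135 cancer cells, and 2031 and 1867 T or NK cells. The gates were defined by these markers, so the following shares only describe them. The calgranulin S100a9 was detected in 97.3% and 97.7% of gated neutrophils, and the complement gene C1qb in 94.7% and 94.2% of gated macrophages. Xcr1 and Clec9a, markers of cross-presenting dendritic cells, were found in 62.5% and 70.8% of the gated dendritic cells of the sensitive library, and Siglech of plasmacytoid dendritic cells in none of either library. Neutrophils were shallow, with a median of 2220.5 and 2567 UMIs, against 11224.5 and 12279 in macrophages. T or NK cells (median 4000 and 4529 UMIs) gave the level that free RNA and misplaced cells leave in a class in which most of these enzymes are not known to be made, Odc1 excepted.

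Promoters were looked up in RefSeq (GRCm38.p6) as the 250 bases before and 50 after each gene's start, and 5 of the 7 genes matched (Acod1, Gatm, Odc1, Ptges and Ptgs2). The promoters of Acod1 (chr14:103046762-103047061, plus strand) and Ptgs2 (chr1:150099781-150100080, plus strand) are printed because these genes had their highest level in the same gate, the neutrophils. The motifs searched on both strands, allowing overlaps, were kappa B (GGNNTTTCC), C/EBP (TTGCGCAA), CRE (TGACGTCA), an ISRE-like motif (GAAANNGAA) and the TATA box (TATAAA), and matches stand in capitals.
Acod1: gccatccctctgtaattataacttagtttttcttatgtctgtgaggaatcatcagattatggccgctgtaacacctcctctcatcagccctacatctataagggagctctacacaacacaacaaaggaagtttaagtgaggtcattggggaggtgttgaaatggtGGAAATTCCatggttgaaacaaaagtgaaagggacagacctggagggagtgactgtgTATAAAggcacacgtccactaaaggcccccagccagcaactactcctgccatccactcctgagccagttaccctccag
Ptgs2: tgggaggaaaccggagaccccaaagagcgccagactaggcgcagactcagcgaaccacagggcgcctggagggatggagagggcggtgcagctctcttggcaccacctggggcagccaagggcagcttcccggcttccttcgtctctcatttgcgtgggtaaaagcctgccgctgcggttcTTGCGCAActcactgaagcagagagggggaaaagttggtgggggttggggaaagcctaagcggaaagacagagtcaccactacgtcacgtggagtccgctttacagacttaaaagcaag
In Acod1 a kappa B match began 85 bases before the start, on the minus strand as GGAAATTCC, and a TATA box 28 bases before it. In Ptgs2 a C/EBP match began 69 bases before the start. No letters of these motifs were found in the windows of Gatm, Odc1 and Ptges. Of all 32851 promoters of this length, 5.82% held the kappa B letters, 13.6% the TATA box, 0.183% the C/EBP letters, 1.79% the CRE and 8.56% the ISRE-like letters. A match describes the sequence and was not tested as a binding site.

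The enzymes were spread over the classes in distinct patterns. In the T cell libraries Gatm was mainly a macrophage gene, Acod1 a neutrophil gene and Ptges a fibroblast gene, while Nos2 and Ptgs2 were shared among classes, Odc1 was found in every gate and Ido1 nearly only in cancer cells. Macrophages held 75.1% and 71.5% of all Gatm UMIs, although they were 4.93% and 4.5% of the kept cells. Neutrophils, at 4.23% and 5.66% of the cells, held 90.0% and 82.8% of Acod1. Fibroblasts held 95.7% and 92.2% of Ptges.

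**Figure D1:**
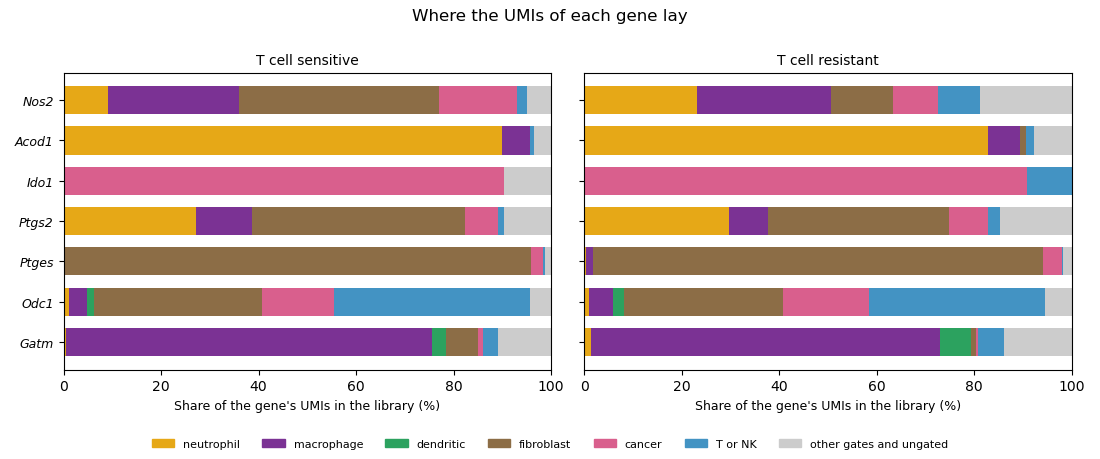
Share of each gene's UMIs (percent, horizontal axis) that lay in each gate of the T cell sensitive (left) and T cell resistant (right) library, with every gene's bar adding to all of its UMIs. Gatm lay mainly in macrophages, Acod1 in neutrophils, Ptges in fibroblasts and Ido1 in cancer cells in both libraries.

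**Figure D2:**
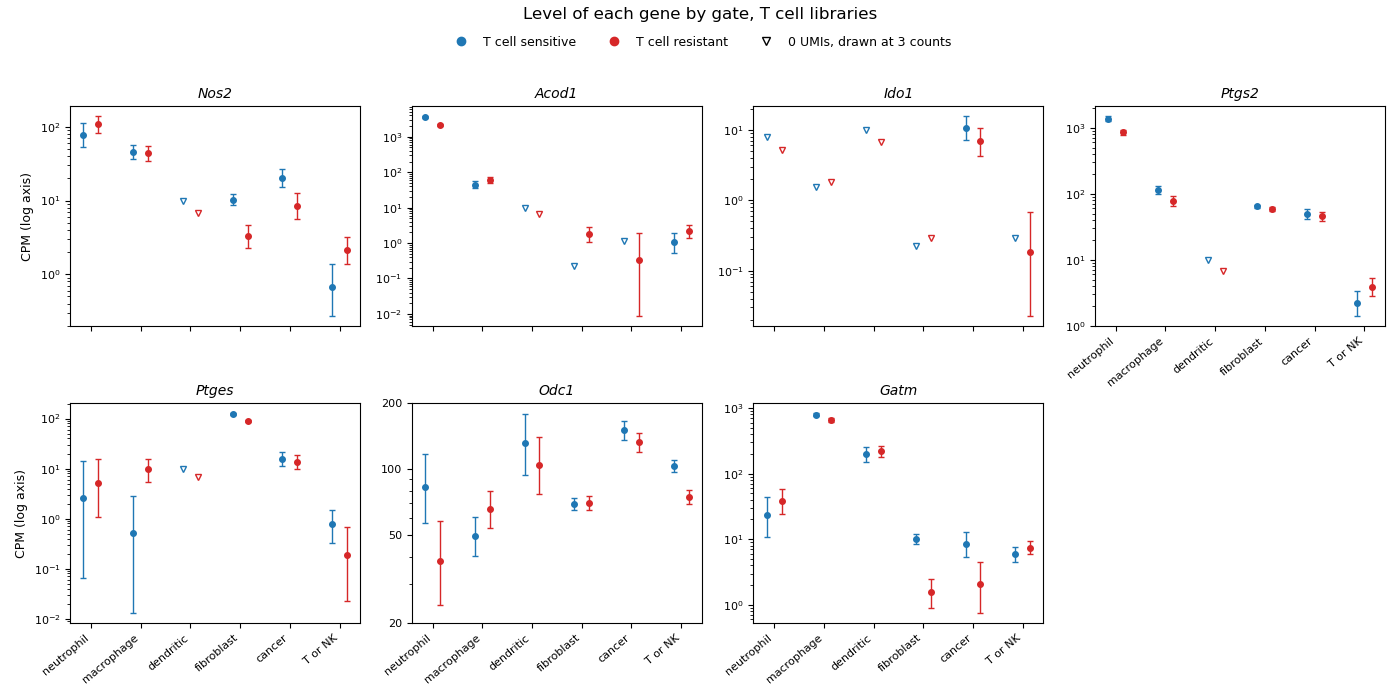
Level of each gene (CPM, log axis) in 6 gates of the T cell sensitive (blue) and T cell resistant (red) library. Points are sums over the cells of a gate with exact Poisson 95% intervals, and open triangles mark gates with 0 UMIs, drawn at the level of 3 counts. Among these 6, each gene kept the same leading gate in both libraries.

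Nos2 (chr11:78920787-78960254, plus strand, in GRCm38 with GENCODE M21, as are all gene coordinates here) had few UMIs in every gate. Neutrophils had 78.2 CPM (52.7 to 112, 30 UMIs) and 108 CPM (82.9 to 139, 62 UMIs), macrophages 45.7 CPM (36.7 to 56.2) and 43.8 CPM (34.3 to 55.1), cancer cells 20.3 CPM (15.2 to 26.6) and 8.56 CPM (5.54 to 12.6), and fibroblasts 10.3 CPM (8.65 to 12.2) and 3.29 CPM (2.28 to 4.6). T or NK cells had 0.674 CPM (0.271 to 1.39) and 2.15 CPM (1.36 to 3.22), and dendritic cells had no UMI, which allows up to 9.88 and 6.7 CPM. Neutrophils and macrophages did not separate beyond counting error in the sensitive library, and did in the resistant one. Thinned shares in neutrophils were 2.74% (0.751 to 6.87, 4 of 146 cells) and 8.57% (4.88 to 13.7, 15 of 175 cells). The transcript was concentrated, with 50% of its macrophage UMIs in 5 and 3 cells.

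Acod1 (chr14:103046977-103056573, plus strand) lay mostly in neutrophils. In neutrophils it reached 3589.9 CPM (3403 to 3785, 1378 UMIs) and 2188 CPM (2069 to 2313, 1255 UMIs), and 81.5% (74.2 to 87.4, 119 of 146 cells) and 70.3% (62.9 to 76.9, 123 of 175 cells) of neutrophils had it after thinning. Macrophages, in which the enzyme is best known from culture, had 44.7 CPM (35.8 to 55.1) and 60.0 CPM (48.8 to 73), with 1.78% (0.368 to 5.1, 3 of 169 cells) and 4.32% (1.6 to 9.16, 6 of 139 cells) of cells positive. No Acod1 UMI was found in 24 and 40 dendritic cells, in 816 fibroblasts of the sensitive library (up to 0.227 CPM) or in its 107 cancer cells (up to 1.15 CPM). In the resistant library fibroblasts had 1.84 CPM (1.11 to 2.87, 19 UMIs in 6 cells) and cancer cells 1 UMI. The T or NK level was 1.06 CPM (0.529 to 1.9) and 2.15 CPM (1.36 to 3.22). Monocytes of the resistant library, under the 20 cells asked of other gates, had 216 CPM (148 to 305), of which 23 of 32 UMIs lay in 1 cell.

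Ptgs2 (chr1:150100031-150108227, plus strand), the inducible cyclooxygenase, had its highest level in neutrophils, at 1370.3 CPM (1256 to 1493, 526 UMIs) and 856 CPM (782 to 935, 491 UMIs). After thinning, 52.7% (44.3 to 61.1, 77 of 146 cells) and 41.7% (34.3 to 49.4, 73 of 175 cells) of neutrophils had a Ptgs2 UMI. Monocytes had 234 CPM (148 to 351) and 459 CPM (356 to 581) and macrophages 115 CPM (101 to 132) and 78 CPM (65.2 to 92.6). Fibroblasts had 64.3 CPM (60.1 to 68.8) and 59.1 CPM (54.5 to 64), and being numerous and deep they held more of the Ptgs2 UMIs (43.7% and 37.1%) than neutrophils did (27.1% and 29.8%). A minority of fibroblasts made this signal, since 15.8% and 16.9% had a UMI at full depth and 13 and 10 cells held 50% of the UMIs. Cancer cells had 50.3 CPM (42 to 59.6) and 45.5 CPM (38.1 to 54), T or NK cells 2.21 CPM (1.4 to 3.32) and 3.92 CPM (2.83 to 5.3), and dendritic cells none.

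Ptges (chr2:30889471-30929863, minus strand), the inducible synthase downstream of PTGS2, was instead a fibroblast gene. Fibroblasts had 122 CPM (116 to 128, 1614 UMIs) and 89.8 CPM (84.1 to 95.7, 928 UMIs), and 61.6% and 64% of them had a UMI at full depth, 9.19% (7.29 to 11.4, 74 of 805 cells) and 9.93% (7.67 to 12.6, 60 of 604 cells) after thinning. Cancer cells followed at 15.7 CPM (11.3 to 21.3) and 13.7 CPM (9.78 to 18.6). Neutrophils, the class with the highest Ptgs2 level, had 1 and 3 UMIs, at 2.61 CPM (0.066 to 14.5) and 5.23 CPM (1.08 to 15.3), intervals that overlapped those of cancer cells and lay below those of fibroblasts. Macrophages had 1 and 16 UMIs, the latter being 9.6 CPM (5.49 to 15.6), against 0.77 CPM (0.333 to 1.52) and 0.187 CPM (0.0226 to 0.674) in T or NK cells.

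Ido1 (chr8:24584136-24597009, minus strand) was detected in cancer cells and had no UMI in the myeloid gates. Cancer cells had 10.7 CPM (7.14 to 15.5, 28 UMIs) in 18 of 107 cells of the sensitive library and 6.85 CPM (4.18 to 10.6, 20 UMIs) in 7 of 135 of the resistant library, where 12 of the UMIs came from 1 cell. Neutrophils, macrophages, monocytes, dendritic cells and fibroblasts had 0 UMIs in both libraries. For dendritic cells, a class known for IDO1, this allows up to 9.88 and 6.7 CPM, for neutrophils up to 7.82 and 5.23 CPM and for monocytes up to 30.5 and 20.2 CPM, limits close to or above the cancer cell level, so the depth cannot show a difference from these gates. For macrophages it allows up to 1.54 and 1.8 CPM. T or NK cells had 0 and 2 UMIs.

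Odc1 (chr12:17544794-17551505, plus strand) was spread over all gates. Cancer cells had 150.4 CPM (136 to 166, 392 UMIs) and 133 CPM (119.9 to 147, 388 UMIs), dendritic cells 132 CPM (94.1 to 179) and 105 CPM (77.2 to 139.7), T or NK cells 104 CPM (97.5 to 110.0) and 74.9 CPM (69.8 to 80.2), and fibroblasts 69.5 CPM (65.1 to 74.1) and 70.0 CPM (65 to 75.3). The intervals of cancer and dendritic cells overlapped in both libraries. The highest level was in endothelial cells, only 7 and 6 in number, at 271 CPM (181 to 389) and 291 CPM (205 to 401). Of their UMIs 15 of 29 and 11 of 37 lay in 1 cell. Macrophages had 49.8 CPM (40.4 to 60.7) and 66 CPM (54.3 to 79.6) and neutrophils 83.4 CPM (57 to 118) and 38.4 CPM (24 to 58.1), with intervals that overlapped in both libraries.

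Gatm (chr2:122594467-122611303, minus strand) was a macrophage gene that reached dendritic cells as well. Macrophages had 793 CPM (754 to 834, 1545 UMIs) and 655 CPM (616 to 695, 1091 UMIs), with 45.6% (37.9 to 53.4, 77 of 169 cells) and 44.6% (36.2 to 53.3, 62 of 139 cells) of cells positive. Monocytes had 335 CPM (231 to 471) and 317 CPM (233 to 421) and dendritic cells 198 CPM (151 to 254) and 219 CPM (178 to 267), with intervals that overlapped. Neutrophils had 23.4 CPM (10.7 to 44.5) and 38.4 CPM (24 to 58.1), and T or NK cells 5.97 CPM (4.58 to 7.65) and 7.47 CPM (5.92 to 9.29).

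The comparison of DOX sensitive with DOX resistant tumors was made between the T cell libraries, gate by gate. A gene was counted as past 2-fold only if the pair held at least 20 of its UMIs. A gene with fewer than 20 in 1 of the libraries was countable only with those of the other. Such a call is no support for the set or for a list. In neutrophils 5 of the 7 genes had that many, and 1 (Odc1) was past 2-fold higher and none lower in the sensitive library, where 10.4% of all genes tested were past 2-fold in either direction. In macrophages none of 5 was past 2-fold, with a background of 5.4%. In dendritic cells none of 2 was, with a background of 9.11%, and Odc1 at 1.25 (0.801 to 1.95) and Gatm at 0.902 (0.643 to 1.26) had intervals spanning 1. In fibroblasts 2 of 5 were higher and none lower, with a background of 5.8%, and in cancer cells 2 of 6 were higher and none lower, with a background of 4.79%. In both gates Gatm was 1 of these 2 and had fewer than 20 UMIs in the resistant library. Left uncounted by the minimum were Ptges in macrophages (1 and 16 UMIs) and Acod1 in fibroblasts (0 and 19 UMIs), both lower in the sensitive library. The median ratio of the genes was 1.6 in neutrophils, 1.04 in macrophages, 1.36 in fibroblasts and 1.36 in cancer cells, and over all genes tested it was 1.02, 1.04, 1.06 and 1.04. The libraries differed in their mitochondrial share as given above, whose part in these ratios was not tested.

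**Figure D3:**
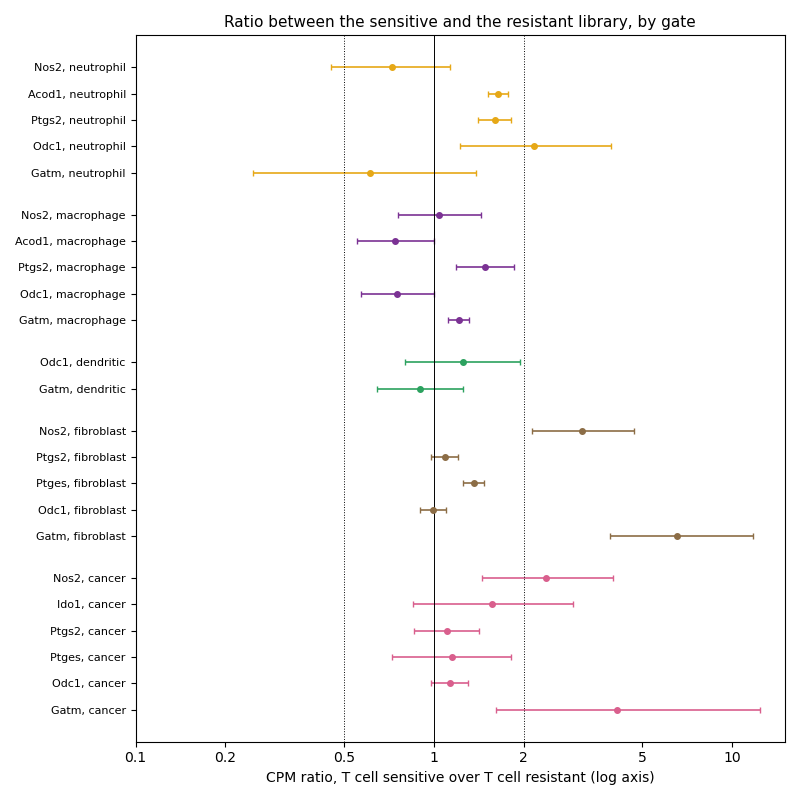
Ratio of CPM between the T cell sensitive and T cell resistant library (log axis) for each gene and gate with at least 20 UMIs in the pair. Bars are exact conditional binomial 95% intervals, the solid line marks a ratio of 1 and dotted lines mark 2-fold. Acod1 and Ptgs2 lay to the right in neutrophils, and Nos2 and Gatm beyond 2-fold in fibroblasts and cancer cells.

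Acod1 and Ptgs2, genes for which neutrophils led, were both higher in those of the sensitive T cell library. In whole tumor the Acod1 ratio of the library titled sensitive to that titled resistant was 0.852 (0.757 to 0.959), and it would turn if these labels were exchanged, so no direction is drawn from it. The ratio was 1.64 (1.52 to 1.77) for Acod1 and 1.6 (1.41 to 1.81) for Ptgs2, and without the top cell of each library (the cell with most UMIs of that gene) it was 1.58 (1.46 to 1.71) and 1.62 (1.43 to 1.84). Both lay under 2-fold. Nos2 had a ratio of 0.723 (0.451 to 1.14), and 0.555 (0.319 to 0.929) without the top cells, when 21 and 57 UMIs remained. Odc1, at 32 and 22 UMIs, had a ratio of 2.17 (1.22 to 3.93). The neutrophil gates also differed in macrophage markers, of which 11 of 12 had UMIs in each library and which summed to 1396 and 1983 CPM, with Apoe as the leading one and Pf4 (sensitive) or Cd163 (resistant) at 0. The part of these cells or transcripts in the ratios was not tested.

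Macrophages of the sensitive library had higher summed levels of Gatm and Ptgs2. The ratio was 1.21 (1.12 to 1.31) for Gatm and 1.48 (1.19 to 1.85) for Ptgs2, and without the top cells it was 1.19 (1.1 to 1.29) and 1.51 (1.18 to 1.94). The share of macrophages with Ptgs2 had overlapping intervals, at 5.33% (2.46 to 9.87, 9 of 169 cells) and 5.76% (2.52 to 11, 8 of 139 cells) after thinning and 23.5% and 24.5% at full depth. With Leiden clusters in place of gates the Ptgs2 ratio turned, to 0.88. Nos2 at 1.04 (0.757 to 1.44) had an interval spanning 1, and Acod1 at 0.744 (0.552 to 1.0) and Odc1 at 0.754 (0.568 to 1.0) lay on the other side, with intervals that just reached 1, and with up to 20% of mitochondrial UMIs allowed that of Acod1 turned as well, to 1.13. All 12 macrophage markers were detected in both macrophage gates and summed to 33385 and 30657 CPM, or 17418 and 13714 CPM without Apoe. Among them Cd163 was found in 15.3% and 1.44% and Adgre1 in 66.5% and 53.2% of macrophages. C1qa, C1qb, Ms4a7, Mertk and Pf4 went the same way, and Apoe was in all cells of both gates. Fcgr1 (67.1% and 76.3%), Trem2 (86.5% and 87.8%), Mrc1 (65.9% and 66.9%) and C1qc (92.4% and 93.5%) went the other way. Neutrophil markers in the macrophage gate summed to 520.0 and 673 CPM, or 406 and 316 CPM without the leading one of each (Il1r2 and Mmp9).

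In fibroblasts Ptges, for which they led, had a ratio of 1.36 (1.26 to 1.48), while Ptgs2 at 1.09 (0.98 to 1.21) and Odc1 at 0.993 (0.899 to 1.1) lay near 1. The genes past 2-fold were Nos2 and Gatm, whose fibroblast levels were low. Gatm stood at 10.2 CPM (8.51 to 12) and 1.55 CPM (0.885 to 2.51). Nos2 had a ratio of 3.13 (2.14 to 4.71) on 136 and 34 UMIs, and Gatm 6.56 (3.9 to 11.8) on 134 and 16. Without the top cells these ratios were 3.79 (2.38 to 6.3) and 6.96 (4.0 to 13.1). A C1qa, C1qb or C1qc UMI was found in 8.2% (5 of 61) of fibroblasts with Gatm and 6.75% (51 of 755) of those without in the sensitive library, and in 53.8% (7 of 13) and 10.5% (62 of 592) in the resistant one. For Nos2 these shares were 11.5% (3 of 26) and 6.71% (53 of 790), and 8.33% (1 of 12) and 11.5% (68 of 593). Macrophage markers in the fibroblast gate, of which 11 of 12 had UMIs in each library and Fcgr1 (sensitive) or Cd163 (resistant) was at 0, summed to 241 and 209 CPM. Apoe made up 221 and 172 CPM of this, and without it the sums were 20.8 and 36.9 CPM. Neutrophil markers summed to 108 and 81.2 CPM. The part of these cells or transcripts in the ratios was not tested.

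In cancer cells Odc1 had a ratio of 1.13 (0.982 to 1.31). Nos2 at 2.38 (1.45 to 3.99) and Gatm at 4.11 (1.62 to 12.4) were past 2-fold, on 53 and 25 and on 22 and 6 UMIs. Gatm became countable only through the sensitive library, so its direction was fixed by the minimum of 20 UMIs. Nos2 was seen in 20 of 107 and 10 of 135 cells, and without the top cells its ratio was 3.36 (1.87 to 6.34). Ido1 had a ratio of 1.57 (0.853 to 2.94), and 3.52 (1.54 to 9.04) without the top cells, since 12 of 20 UMIs of the resistant library were in 1 cell. Ptgs2 at 1.1 (0.861 to 1.42) and Ptges at 1.15 (0.725 to 1.82) had intervals spanning 1. Macrophage markers in the cancer gate summed to 13.8 and 23.3 CPM, with 7 and 8 of 12 detected, neutrophil markers to 176 and 127 CPM (15 and 12 CPM without Mmp9, with S100a8 and S100a9 at 0 in the sensitive library), and a C1q UMI was found in 1 of 9 and 3 of 6 Gatm-bearing cancer cells. Their part in the ratios was not tested.

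The genes around these enzymes were taken from 7 lists of 6 to 20 genes, of which the counts past 2-fold in 5 gates and some of the genes with most UMIs in a gate are given. Il4ra, Ltc4s, Alox5, Ptgis and Alox15 in macrophages, Slc7a2, Ptger2, Ptger3, Ptger4, Irf1 and Csf2rb in fibroblasts, Slc7a2 and Slc7a7 in cancer cells, Irf1 in macrophages and Cebpb in dendritic cells lay outside those and were named after their values were seen. Over all lists 2 of 21 countable genes (9.52%) were past 2-fold in neutrophils, 6 of 50 (12%) in macrophages, 5 of 34 (14.7%) in dendritic cells, 7 of 53 (13.2%) in fibroblasts and 3 of 47 (6.38%) in cancer cells, against the 10.4%, 5.4%, 9.11%, 5.8% and 4.79% of all genes given above. Near that background, as in neutrophils, a count says nothing about a list. The counts above it hold genes with fewer than 20 UMIs in 1 of the libraries, so they are no support for a list either. In macrophages 1 of 9 countable genes of the arginine, urea cycle and creatine list was past 2-fold higher in the sensitive library and none lower, with a median ratio of 1.09 and 5.4% of all genes past 2-fold. This was Slc7a2, the cationic amino acid transporter that brings arginine into macrophages, at 219 against 69.6 CPM, a ratio of 3.14 (2.55 to 3.89), found in 69 and 37 cells. Ass1, which rebuilds arginine from citrulline, had a ratio of 1.09 (0.912 to 1.29) and the creatine kinase Ckb of 0.594 (0.493 to 0.716). In the list of inducers 1 of 10 was higher, the interleukin 4 receptor chain Il4ra at 244 against 103 CPM, a ratio of 2.38 (2.0 to 2.85), found in 109 and 71 cells. The transcription factor Cebpb had a ratio of 0.933 (0.883 to 0.985) and Hif1a of 1.35 (1.15 to 1.58).

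In the prostaglandin and eicosanoid list 4 of 13 countable genes were past 2-fold higher in macrophages of the sensitive library and none lower, with a median ratio of 1.15 and 5.4% of all genes past 2-fold in that gate. Alox15 and Ptgis became countable only through the sensitive library, in which they were high, so their direction was fixed by the minimum of 20 UMIs and the count is no support for the list. The 4 were the leukotriene C4 synthase Ltc4s at 2.59 (2.01 to 3.36), Alox5 at 2.07 (1.02 to 4.45) on 29 and 12 UMIs, the prostacyclin synthase Ptgis on 25 and 1 UMIs, and the 15-lipoxygenase Alox15. Alox15 had 123 UMIs in 8 cells of sensitive tumors and none in resistant ones, at least 28.1-fold higher by the exact 95% limit (35.1-fold against a floor of 3 counts), with 48 of the 123 UMIs in 1 cell. The list's leading genes were nearer to 1, with Alox5ap at 1.62 (1.45 to 1.81), the constitutive cyclooxygenase Ptgs1 at 1.15 (0.979 to 1.36) and the thromboxane synthase Tbxas1 at 0.909 (0.748 to 1.1). In neutrophils 1 of 3 was lower, the 5-lipoxygenase Alox5 at 0.308 (0.115 to 0.705) on 7 and 34 UMIs, and its activating protein Alox5ap had 0.70 (0.62 to 0.788). Alox5 was countable there only through the resistant library, in which it was high, so this count is no support for the list. The median of the 3 was 0.70. Ptgs2 and Alox5ap, the latter on 407 and 869 UMIs, lay on opposite sides of 1 in the neutrophil gate.

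Of the polyamine list in neutrophils 1 of 5 was past 2-fold, in a gate where 10.4% of all genes were, the antizyme inhibitor Azin1 at 2.33 (1.2 to 4.68), and the list's median was 0.969. The spermine oxidase Smox, at 859.7 against 539 CPM, a ratio of 1.6 (1.36 to 1.87), was higher as well, while the polyamine acetylase Sat1 at 0.966 (0.85 to 1.1) and the antizyme Oaz1 at 0.969 (0.831 to 1.13) lay near 1. In macrophages, fibroblasts and cancer cells no polyamine gene was past 2-fold, of 8, 9 and 9. Gch1, which makes the cofactor of nitric oxide synthases, had a ratio of 0.996 (0.741 to 1.33) in neutrophils, 1.39 (1.09 to 1.78) in macrophages and 1.08 (0.883 to 1.32) in fibroblasts. Irf1, an interferon-induced factor, had 1.62 (1.41 to 1.86) in neutrophils, 0.882 (0.72 to 1.08) in macrophages and 1.11 (0.96 to 1.28) in cancer cells.

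In fibroblasts Slc7a2 was again past 2-fold higher, at 18.4 against 5.03 CPM, a ratio of 3.66 (2.7 to 5.04), and was the only one of 9 arginine genes that was, with a list median of 1.14. Ass1 lay just inside, at 296 against 149 CPM, a ratio of 1.99 (1.87 to 2.11). Of the prostaglandin list 3 of 14 were higher, all of them receptors of prostaglandin E2, namely Ptger3 at 2.36 (1.9 to 2.95), Ptger4 at 2.43 (1.69 to 3.54) and Ptger2 on 45 and 2 UMIs (countable only through the sensitive library, so that its direction was fixed by the minimum), while the list's median was 0.938. The prostaglandin-degrading Hpgd was at 1.9 (1.67 to 2.15). The tryptophan dioxygenase Tdo2, an enzyme of the same step as IDO1, had 4.02 (2.29 to 7.53) on 77 and 15 UMIs and was the 1 of 3 countable genes of its list that was past 2-fold. Of the inducers 2 of 10 were higher, with a median of 1.28, namely Irf1 at 105 against 48.8 CPM, a ratio of 2.14 (1.93 to 2.37), and Csf2rb, the shared receptor chain for GM-CSF, at 3.52 (2.77 to 4.52). In cancer cells 2 of 9 arginine genes were lower and none higher, with a median of 0.862, and these were the transporters Slc7a2 at 0.129 (0.0251 to 0.422) and Slc7a7 at 0.311 (0.0904 to 0.87), on 3 and 26 and on 5 and 18 UMIs, and 13 of the Slc7a2 UMIs of the resistant library lay in 1 cell. The minimum of 20 UMIs was reached by both through the resistant library, in which they were high, so this count is no support for the list. Of the nitric oxide list 1 of 5 was lower in cancer cells, the GCH1 regulator Gchfr at 0.396 (0.128 to 1.05) on 6 and 17 UMIs. Gchfr also reached the minimum only through the resistant library, in which it was high, so this count is no support for its list.

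In dendritic cells, only 24 and 40 in number, 5 lists held 1 gene each past 2-fold, or 5 of 34 countable genes, with 9.11% of all genes past it. These were Ass1 (of 4 countable arginine genes) at 2.11 (1.47 to 3.06), with 41 of its 76 UMIs of the sensitive library in 1 cell, Qdpr (of 4 nitric oxide genes) at 2.95 (1.19 to 7.95) on 16 and 8 UMIs, and Cebpb (of 10 inducers) at 3.31 (1.37 to 8.81) on 18 and 8, all higher, and the spermine synthase Sms (of 4 polyamine genes), lower at 0.335 (0.099 to 0.906) on 5 and 22. Il4i1 (of 6 amino acid oxidases and tryptophan genes), a phenylalanine and tryptophan oxidase of mature dendritic cells, was higher at 3.86 (2.3 to 6.72) on 55 and 21 UMIs, from 3 and 5 cells, with 36 of the 55 in 1 cell. Qdpr, Cebpb and Sms reached the minimum of 20 UMIs only with the library in which they were high, so the count in dendritic cells is no support for the lists. Idh1, the cytosolic isocitrate dehydrogenase, had 1.29 (0.967 to 1.74) in macrophages and 0.907 (0.83 to 0.991) in fibroblasts, and no gene of the itaconate and aconitate list was past 2-fold in macrophages (of 3), fibroblasts (of 4) or cancer cells (of 4). In neutrophils none of its genes had 20 UMIs in the pair. In the lists and gates of these 5 for which no count is given, no countable gene was past 2-fold.

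The whole-tumor libraries were made of neutrophils for the most part, with 317, 236 and 138 in the control, sensitive and resistant library (median 1500, 1463 and 2139.5 UMIs). Only these were numerous enough in all 3. Acod1 stood at 839 CPM (769.7 to 913) in control, 1409.8 CPM (1298 to 1529) in sensitive and 1655 CPM (1519 to 1799.6) in resistant tumor, and was detected after thinning in 48.5% (42.7 to 54.3, 144 of 297 cells), 57.1% (49.7 to 64.2, 109 of 191 cells) and 65.4% (56.7 to 73.4, 87 of 133 cells). By title both DOX treated libraries were thus above the saline control, with ratios of 1.68 (1.49 to 1.89) and 1.97 (1.75 to 2.23). This would hold with the labels of the treated libraries exchanged, but not with that of the control exchanged for either. Since the source description of the control also named a sensitive tumor, no effect of DOX is drawn from these ratios. Ptgs2 had the reverse order, at 208 CPM (174 to 246), 172 CPM (134 to 217) and 128 CPM (91.9 to 172), with a ratio to control of 0.826 (0.611 to 1.11) for sensitive and 0.614 (0.423 to 0.874) for resistant tumor. Nos2 had 33, 17 and 23 UMIs with overlapping intervals.

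**Figure D4:**
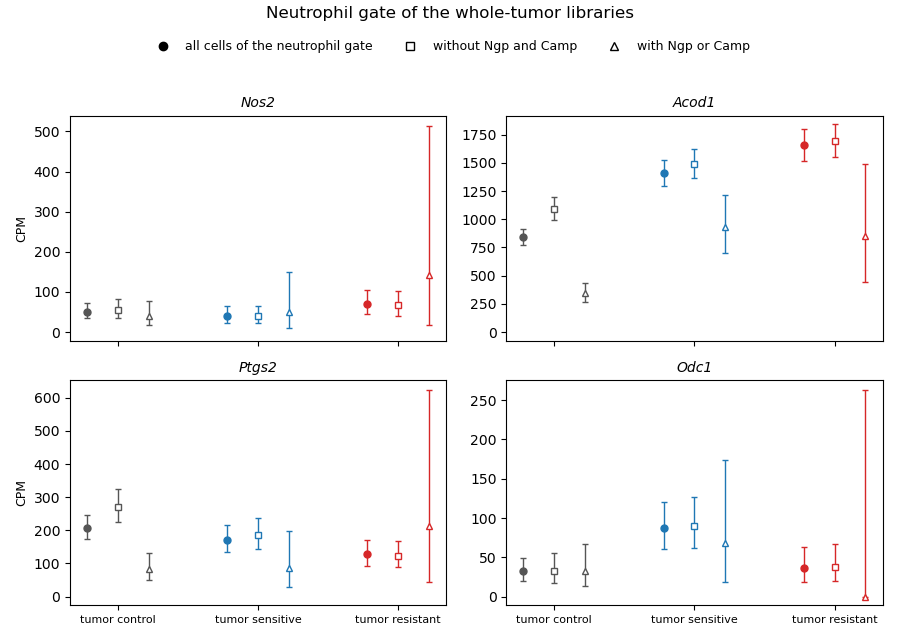
Level (CPM, linear axes that differ between panels) of 4 genes in the neutrophil gate of the tumor control (grey), tumor sensitive (blue) and tumor resistant (red) library, for all gated neutrophils (filled circles), those without Ngp and Camp (open squares) and those with either (open triangles), with exact Poisson 95% intervals. By title, which is in doubt, Acod1 was higher in both treated libraries and Ptgs2 lower in the resistant one than in control. Neutrophils with Ngp or Camp of the library titled control had less Acod1 and Ptgs2 than those without.

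Of the 4 genes countable in neutrophils of sensitive and control tumor, 1 (Odc1) was past 2-fold higher and none lower, with a background of 15% past 2-fold among all genes tested. For resistant against control none of 4 was past 2-fold in either direction, with a background of 13.6%, and for sensitive against resistant 1 of 4 (Odc1), with a background of 9.25%. The first pair of comparisons shares the control library. Macrophage markers in the neutrophil gate summed to 127, 409 and 798 CPM in the same order, with Apoe leading and 7, 10 and 10 of 12 detected. Mertk and Cd163 were at 0 in all 3 libraries and C1qa, Mrc1 and Ms4a7 in the control. Their part in the ratios was not tested. Odc1 rested on 21, 36 and 12 UMIs.

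The libraries also differed in markers of neutrophil maturity. Ngp and Camp, granule genes of immature neutrophils, were detected in 55 of 317 neutrophils of control tumor, 20 of 236 of sensitive and 4 of 138 of resistant tumor. In control tumor the cells with Ngp or Camp had less Acod1, 345 CPM (271 to 432) against 1090.0 CPM (993 to 1194), and less Ptgs2, 82.8 CPM (49.1 to 131) against 271 CPM (224 to 325). Among cells without Ngp and Camp the Acod1 ratio to control was 1.37 (1.2 to 1.55) for sensitive and 1.55 (1.37 to 1.76) for resistant tumor, smaller than over all neutrophils but still above 1. That of Ptgs2 was 0.686 (0.499 to 0.936) and 0.456 (0.309 to 0.66), further below 1. These ratios rest on the titles too, and those of sensitive to control would turn if these labels were exchanged. In the T cell libraries 2 and 7 neutrophils had either gene.

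Outside the neutrophils the whole-tumor libraries were thin. Macrophages numbered 9, 5 and 31, and their Gatm level was 1966 CPM (1556 to 2449.9, 79 UMIs), 2541 CPM (1925 to 3293, 57 UMIs) and 2305 CPM (2086 to 2542, 403 UMIs). The macrophage gate thus led for Gatm in undepleted tumor too, and with under 20 cells in 2 of the libraries no ratio is given. Neutrophils did not lead for Ptgs2 in control and resistant tumor, where 7 and 5 fibroblasts had 899 CPM (742 to 1080) and 1183 CPM (961 to 1440). In each, 1 cell held most of these UMIs (70 of 114 and 54 of 99). Nos2 stood at 173 CPM (109 to 263) in control fibroblasts, with 16 of 22 UMIs in 1 cell, against 51.2 CPM (35.2 to 71.9) in neutrophils. Fibroblasts of resistant tumor had 2 Nos2 UMIs. In cancer cells Odc1 was 422 CPM (369.7 to 479, 238 UMIs) in control and 223 CPM (193 to 257, 195 UMIs) in resistant tumor, a ratio of 0.529 (0.436 to 0.642), and Ptgs2 72.6 CPM (52.1 to 98.5, 41 UMIs) and 104 CPM (83.8 to 128, 91 UMIs), a ratio of 1.43 (0.981 to 2.13). In the same gate macrophage markers summed to 17.7 and 84.7 CPM, with 4 and 7 of 12 detected, and neutrophil markers to 1856 and 844 CPM, with 11 and 12 detected. A C1q UMI was found in 1 of 12 and 10 of 21 cancer cells with Ptgs2 and in 0 of 16 and 5 of 23 without. Their part in the ratios was not tested. Ptges, on 5 and 17 UMIs, was the 1 of 3 countable genes past 2-fold, at 2.2 (0.778 to 7.61), with a background of 12.1%. Ido1 had 1 UMI in all 3 libraries together.

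Whether the enzymes occur in the same cells was asked by joint detection after thinning. In neutrophils of the resistant T cell library Acod1 was found in 84.9% (74.6 to 92.2, 62 of 73) of cells with Ptgs2 and 59.8% (49.6 to 69.4, 61 of 102) of cells without, and in the sensitive library in 80.5% (69.9 to 88.7, 62 of 77) and 82.6% (71.6 to 90.7, 57 of 69). The intervals lay apart in the resistant and overlapped in the sensitive library. This rested on the draw of UMIs, since over 100 further random draws the resistant shares averaged 80.1% (lowest 68.9, highest 87.0) with and 65.1% (56.1 to 71.1) without Ptgs2, and their intervals lay apart in 14 draws. The sensitive shares averaged 84.5% (77.2 to 92.5) and 81.5% (75 to 87.9), with intervals apart in 0 draws. In control whole tumor the shares were 52.7% (38.8 to 66.3, 29 of 55) and 47.5% (41.1 to 54, 115 of 242).

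**Figure D5:**
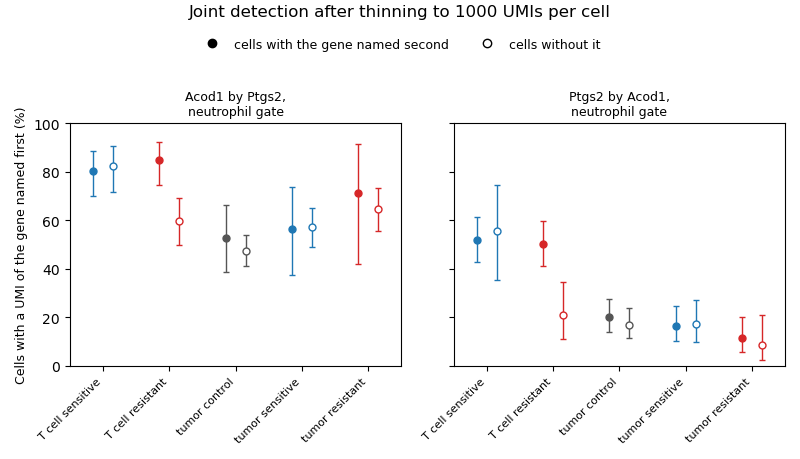
Percent of neutrophils with the gene named first, among cells with (filled) and without (open) the gene named second, after 1 draw of 1000 UMIs from every cell, by library and with Clopper-Pearson 95% intervals. In this draw the intervals of filled and open points overlapped in every library but the T cell resistant one, where they lay apart in 14 (Acod1 by Ptgs2) and 15 (Ptgs2 by Acod1) of 100 further draws.

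In fibroblasts Ptges was seen in 11.5% (2.45 to 30.2, 3 of 26) of cells with Ptgs2 and 9.11% (7.19 to 11.4, 71 of 779) of cells without in the sensitive library, and in 13.3% (1.66 to 40.5, 2 of 15) and 9.85% (7.56 to 12.5, 58 of 589) in the resistant one. Over the further draws these shares averaged 15.8% and 9.67% in the sensitive and 8.71% and 8.46% in the resistant library, with intervals apart in 4 and 0 of 100.

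The genes whose pattern over the classes was most like that of each enzyme were found by Pearson correlation of log2(CPM + 10) over 12 points (6 gates in 2 libraries) among 11094 genes. These points share libraries and gate depth, gates that lead for a gene set its correlation, and no test was made. For Gatm they were Zmynd15 (0.983), Ly86 (0.979) and Rassf4 (0.978). Acod1 went with Trem1 (0.997), Fpr2 (0.997) and Csf3r (0.996), all receptors of neutrophils, with Trem1 and Csf3r among the gate markers. Ptgs2 went with Plaur (0.991), Tlr4 (0.967) and Ppard (0.965) and Nos2 with Fth1 (0.973), Ninj1 (0.969) and Bnip3 (0.965). For Ido1 they were Dmp1 (0.999), Ibsp (0.999) and S100a14 (0.995), of which Dmp1 and Ibsp code for bone matrix proteins, for Ptges Sardh (0.983), P3h3 (0.979) and Ak1 (0.979), and for Odc1 Mterf4 (0.967), Cacul1 (0.937) and Twistnb (0.919).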

How the data were processed

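Single cells of 4T1 tumors were profiled as 3′ single-cell RNA-seq in 5 libraries, 2 enriched for T cells and 3 of whole tumor. The deposited values were UMI counts per gene and barcode, which the authors made with Cell Ranger 6.0.0 (T cell) and 3.0.1 (whole tumor), per the file headers, against mm10. The feature lists differed, so no ratio was taken between the sets. Genes were matched by Ensembl ID, and a further Gatm entry of the whole-tumor list was at 0 UMIs.

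Barcodes of the T cell libraries needed 500 genes or more and no more than 10% of UMIs from mitochondrial genes, and those of whole tumor 200 genes (there the mitochondrial features were all at 0, so a limit of 20% removed none). Doublets were scored with the Scrublet method of scanpy 1.11.5 in the T cell libraries and the highest scores removed (112 and 159 cells). Gate thresholds were set after the depth of the files was seen. Counts were summed by gate and compared as ratios of CPM, with called meaning past 2-fold and at least 20 UMIs in the pair. With 1 library per group no test was made. The members and lists were chosen with earlier results of these data known, and the C/EBP letters were set after the promoters were seen. The genes named were the 7 enzymes in gates of at least 20 cells (and in some smaller gates, whose cell numbers are given), the 3 genes most correlated with each, and the counts and up to 4 genes with most UMIs of each list, beside list genes past 2-fold that were named after their values were seen, as was Irf1. Python packages were numpy 2.4.6, scipy 1.17.1, pandas 2.3.3, leidenalg 0.10.2, scikit-learn 1.9.0 and matplotlib 3.10.9. The scripts were tested on simulated data. In all, 10 alternatives were planned and 3 added after the data were seen. Some genes of the chosen set and of a list are not reported here.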

Additional observations from a re-analysis of the deposited data

How the results depend on the processing

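Of 404 ratios recomputed under the alternatives, 383 stayed within the interval of the value reported, and 21, of 11 comparisons, changed to the other side of 1, of which 12 stayed within the interval. Only 1 of these had been past 2-fold. Of 931 levels 852 stayed within the interval, of 1064 shares of cells 898 and of 252 joint shares 235, with 76 and 70 of the moved shares from asking for 2 UMIs and from no thinning. With cells of up to 20% mitochondrial UMIs, the sensitive over resistant ratio of Acod1 in neutrophils was 1.51, and as a mean over cells it was 1.48. With Leiden clusters in place of gates Gatm in macrophages had 1.33 and Ptgs2 0.88 (from 1.48), and Gatm in neutrophils ranged from 0.549 to 3.45 over the settings. With median-ratio scaling the Acod1 ratio of sensitive to control whole-tumor neutrophils was 1.47. Of the alternatives chosen after seeing the data, leaving out the top cell gave 3.52 for Ido1 in cancer cells and 1.03 for Nos2 in T or NK cells (reversed from 0.314), 1.03 for Ptgs2 in T or NK cells (from 0.565) and 1.05 for Gatm in neutrophils (from 0.611), and neutrophils without Ngp and Camp gave 1.37 for Acod1 in sensitive over control and 1.55 in resistant over control. The cause was not tested. With 100 other random draws of the thinning, also chosen after seeing the data, the mean of each of 133 shares of cells and 36 joint shares lay within the interval reported. No paired analysis was possible because each group was 1 library and no result came from a test. Depth limited the low genes most, since Ido1 and the neutrophil values of Nos2 and Odc1 rested on fewer than 100 UMIs a library.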

Other observations

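Cells that reached no gate also carried these enzymes. In the T cell sensitive library 131 ungated cells other than macrophage and monocyte ties held 152 Ptgs2 UMIs, at 183 CPM (155 to 214) in 16 cells, and 170 Gatm UMIs, at 204 CPM (175 to 237) in 25 cells. In the T cell resistant library 101 such cells held 144 Ptgs2 UMIs, at 197 CPM (166 to 232) in 18 cells, and 137 Gatm UMIs, at 187 CPM (157 to 222) in 26 cells. A further 5 and 8 cells, in which macrophage and monocyte markers led together, held 12 and 29 Ptgs2 UMIs and 22 and 29 Gatm UMIs.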
